A study of Rattus norvegicus with 26 samples.

Results

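Cultured rat neurons and astrocytes were set against cultured rat oligodendrocytes and microglia, and the genes that both cultures of one pair held well above both cultures of the other pair are described here. The comparison used 16 of the 26 arrays, 8 per side. Each of the 4 cultures was grown from the cerebral cortex of newborn (P1) rat pups and measured as total RNA on 4 arrays. The remaining 10 arrays hold 5 mixtures of RNA from these cultures, 2 arrays each. No culture carries a treatment, and the labels give neither a strain nor an allele nor the age of a culture. The labels call the 4 arrays of a culture biological replicates without saying which pups or dishes each came from, so the p-values measure the spread between these samples. Microglia replicate 4 carries a description that reads as a mixture, while its title and cell type name microglia. It was kept, and results were recomputed without it, with the changed counts given below. All values are RMA expression levels on a log2 scale, in which 1 unit is a doubling. RMA compresses low signals, and a level below an array's median, which lay between 5.25 and 5.31 on the culture arrays, is close to background. Where both cultures of the lower side were that dim, a fold is given as "at least".

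Neurons, astrocytes and oligodendrocytes all descend from the neural tube, whereas microglia are the brain's resident macrophages and enter it from the yolk sac. Cortical oligodendrocytes are commonly purified from mixed glial cultures, in which precursors and microglia grow together on a bed of astrocytes. Each culture here is a bulk sample, so fewer cells of a type and less RNA per cell cannot be told apart.

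A gene counted as shared by a pair when the mean of each of its 2 cultures was at least 1 log2 unit above the mean of each of the other 2. By these means alone 363 of 14217 genes (2.55%) were shared by neurons and astrocytes and 417 (2.93%) by oligodendrocytes and microglia. Requiring also that all 4 differences have an adjusted p below 0.05 (limma, Benjamini-Hochberg over 31042 probe sets) left 324 genes (2.28%) and 394 genes (2.77%), which are called shared below. Since the 4 differences chose these genes, the gap between the sides is a description and was not tested again. The smallest of the 4 differences had a median of 1.55 and a maximum of 5.41 among the genes of neurons and astrocytes, and a median of 1.98 and a maximum of 8.01 among those of oligodendrocytes and microglia. It was at least 4 in 5 genes of the first set and in 50 of the second. All 8 arrays of the higher side lay above all 8 of the lower side for 268 of the 324 genes and for 363 of the 394. Over all genes such separation held for 4.57% in the first direction and 6.06% in the second. The other pairings of these cultures gave 230 and 127 genes by means alone when neurons joined oligodendrocytes, and 35 and 109 when neurons joined microglia.

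**Figure D1:**
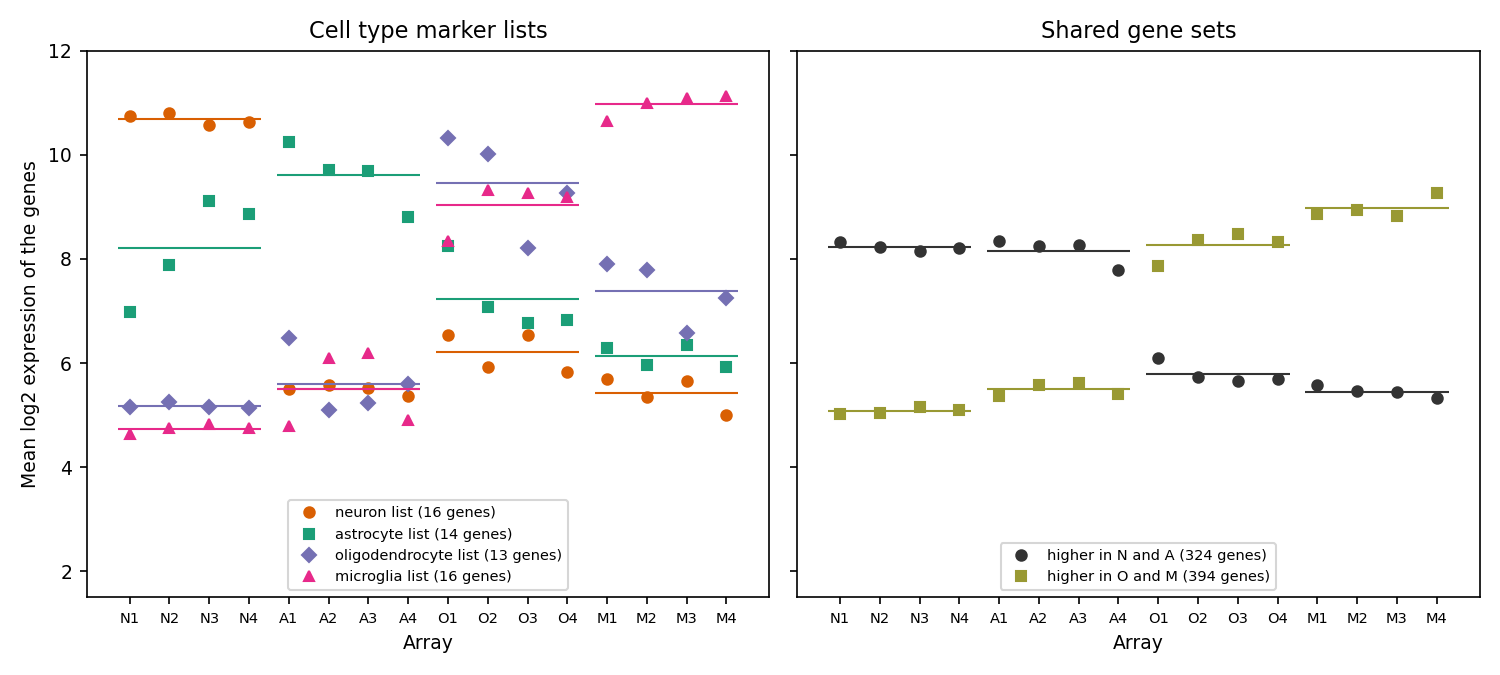
Mean log2 expression (y axis) of 4 marker lists (left) and of the 2 sets of shared genes (right) on each of the 16 culture arrays (x axis), with 1 point per array and a line at each culture's mean. The microglia list lies between 8.35 and 9.33 on the oligodendrocyte arrays and between 10.64 and 11.14 on the microglia arrays, against 4.63 to 4.83 on the neuron arrays, and the oligodendrocyte list lies between 6.57 and 7.91 on the microglia arrays.

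The labelled cell types were checked against marker lists. These lists and the lists of gene functions below were chosen with earlier results of these data known, so their counts are descriptions. The 16 neuron markers averaged 10.57 to 10.80 on the neuron arrays and at most 6.55 elsewhere. The 14 measured astrocyte markers averaged 8.82 to 10.24 on the astrocyte arrays, but also 6.99, 7.89, 9.11 and 8.86 on neuron arrays 1 to 4 and 8.25 on oligodendrocyte array 1. The 16 measured microglia markers averaged 8.35 to 9.33 on the oligodendrocyte arrays, with 1 of the 16 below the array medians there. The 13 measured oligodendrocyte markers averaged 8.22 to 10.33 on the oligodendrocyte arrays and 6.57 to 7.91 on the microglia arrays, where 5 were below the medians. On neuron arrays the microglia markers averaged 4.63 to 4.83 and the oligodendrocyte markers 5.13 to 5.26. Markers of both glial types were thus measured in both cultures of the second pair, and the part this played in the shared genes was not tested. Astrocyte array 4 stood apart from the other 3 in its fibroblast and meninges markers, which averaged 8.79 against 6.28 to 6.49.

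Of the 15 genes with the widest gap in favour of oligodendrocyte and microglia cultures, 6 were on the microglia or phagocyte lists (Aif1, Fcer1g, Itgal, Rac2, Cybb and Tyrobp). The first of the 15 was on none of them. Adgre1, which encodes the macrophage surface receptor F4/80, measured 11.26, 11.54, 12.12 and 11.60 on oligodendrocyte arrays 1 to 4 and 10.91, 11.31, 11.57 and 12.58 on microglia arrays 1 to 4. On neuron arrays it measured 3.26, 3.54, 3.23 and 3.08, and on astrocyte arrays 3.32, 3.77, 3.85 and 3.36. The smallest gap between cultures was 8.01, at least 259-fold, and no array of one side came near the other. Aif1, the microglial calcium-binding protein Iba1, lay at 10.05, 10.71, 10.22 and 10.27 in oligodendrocyte cultures and at 10.87, 11.01, 11.47 and 11.83 in microglia. Its neuron arrays read 3.14 to 3.51 and its astrocyte arrays 3.20 to 5.25, a gap of at least 72.0-fold, and 1 of its 2 probe sets met the rule. Fcrl2, an Fc receptor-like protein, Itgal, an integrin chain of leukocytes, and Rac2, a GTPase of blood cells, followed with gaps of 6.41, 5.57 and 5.42.

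**Figure D2:**
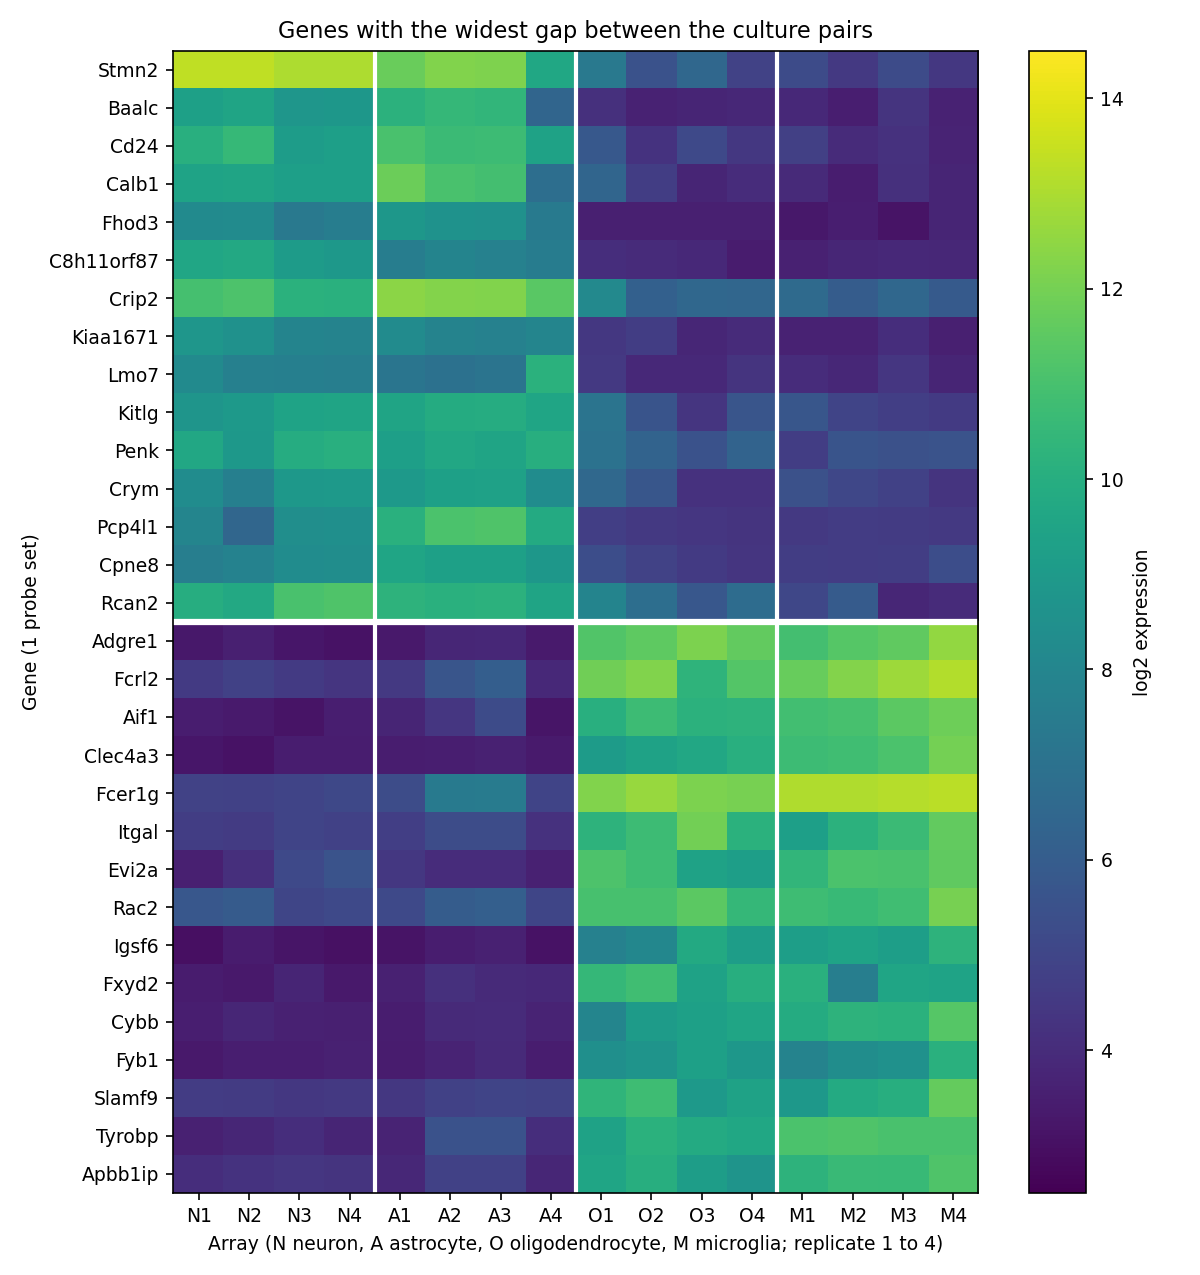
Log2 levels (colour) of the 15 genes with the widest gap on each side (rows, sides split by a white line) on the 16 culture arrays (columns). The genes of oligodendrocytes and microglia are led by Adgre1 with a smallest difference of 8.01, and those of neurons and astrocytes by Stmn2 with 5.41.

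All 13 measured genes of the list of Fc receptors and ITAM adaptors, which couple antibody and lipid sensing to Syk kinase signalling, were called shared by oligodendrocytes and microglia. Over all genes 2.77% were, and the same share applies to the lists of this side below. Fcer1g, the Fc receptor gamma chain, read 12.25, 12.63, 12.14 and 12.06 on oligodendrocyte arrays and 13.07, 13.05, 13.17 and 13.25 on microglia arrays. Its neuron arrays lay between 4.80 and 5.11, while astrocyte arrays 2 and 3 (7.40 and 7.52) stood above astrocyte arrays 1 and 4 (5.30 and 4.98). The same astrocyte arrays had the higher microglia marker averages of 6.10 and 6.20, against 4.79 and 4.90 on arrays 1 and 4. Of the 13 genes, 9 were higher in microglia than in oligodendrocyte cultures by at least 1 log2 unit at an adjusted p below 0.05 (limma), and none was higher in oligodendrocyte cultures. Over all genes, 5.9% were higher in microglia and 7.06% in oligodendrocyte cultures by this rule. Trem2, a lipid receptor that signals through Tyrobp, showed the widest spread within the pair, with 7.39, 8.56, 7.28 and 8.07 in oligodendrocyte cultures and 11.34, 11.73, 11.97 and 11.70 in microglia. That difference of -3.86 ± 0.27 (SE, n = 4 per culture) had a limma adjusted p of 1.64e-07. Here and below, the SE, interval and p of a culture difference rest on 1 spread shared by all 4 cultures. Without astrocyte array 2, or without oligodendrocyte array 2, 3 or 4, the shared call of Plcg2 was lost, and the within-pair calls of Fcgr1a and Fcgr2b also ended when single arrays were left out.

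The phagocyte oxidase, which makes superoxide in phagosomes, had 5 of 5 measured subunits called in the same direction. Cybb, its catalytic subunit, lay at 7.98, 9.07, 9.34 and 9.57 in oligodendrocyte cultures and at 9.89, 10.24, 10.16 and 11.36 in microglia, with every neuron and astrocyte array between 3.46 and 3.99. Cybb was lower in oligodendrocyte cultures than in microglia by 1.42 ± 0.32 (SE, n = 4 per culture, limma adjusted p = 0.00396). Cyba, its membrane partner, was also higher in microglia, while the other 3 did not pass. Of 12 measured leukocyte integrins and actin regulators, 11 were called shared and 5 of these were higher in microglia. The within-pair call of Arhgap30, 1 of the 5, was lost without oligodendrocyte array 1 or microglia array 4. The lists overlap, so their counts are not separate results. Rac2 is on this list and the oxidase list, and Itgam on this, the complement and the microglia lists. Fcer1g, Tyrobp and Trem2 are on both the Fc receptor and the microglia lists. Rac2 did not differ detectably within the pair (oligodendrocyte minus microglia -0.06, 95% interval -0.79 to 0.67), nor did Itgal (0.34, interval -0.61 to 1.29).

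Complement genes, whose products tag debris and synapses for uptake, were called for 8 of 12 measured members. The 3 chains of C1q were low on neuron arrays and stepped up from oligodendrocyte cultures to microglia. C1qa measured 8.42, 10.62, 10.63 and 11.03 in oligodendrocyte cultures and 12.48, 12.58, 12.71 and 13.08 in microglia, and astrocyte arrays 2 and 3 again stood at 7.78 and 7.92 against 4.76 and 4.27 for the others. Its within-pair difference was -2.54 ± 0.74 (SE, n = 4 per culture, limma adjusted p = 0.0183) and was lost without oligodendrocyte array 1. C1s, C1r, C3 and Cd55 were not called. Cfd, the serine protease complement factor D, was outside this list and was the gene with the widest lead in microglia, with 4.53, 6.45, 5.80 and 6.82 in oligodendrocyte cultures and 10.88, 10.65 and 10.52 on microglia arrays 1 to 3, with array 4 a little lower. Oligodendrocyte array 1 lay within the range of the astrocyte arrays (4.19 to 4.62) for Cfd.

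Toll-like receptor signalling, the sensing of microbial products, had 7 of 10 measured genes called shared. Here some members were higher in oligodendrocyte than in microglia cultures. Il1b, the cytokine interleukin 1 beta, read 9.44, 10.67, 12.80 and 11.03 in oligodendrocyte cultures, and 7.77, 8.11 and 10.25 on microglia arrays 2 to 4, with array 1 between the first 2 of these. Neuron and astrocyte arrays stayed between 4.14 and 4.65, a gap of at least 17.6-fold. The oligodendrocyte cultures were higher than microglia by 2.45 ± 0.58 (SE, n = 4 per culture, limma adjusted p = 0.00553), although microglia array 4 overlapped them. The SD of Il1b was 1.39 in oligodendrocyte cultures and 1.15 in microglia, but 0.23 in neurons and 0.20 in astrocytes. The shared spread therefore makes this SE smaller than the 2 compared cultures alone would give. Tlr1 was also higher in oligodendrocyte cultures (2.30 ± 0.53, limma adjusted p = 0.00443), with microglia array 4 at 7.51 against 4.47 to 4.61 on the other 3. The same limit applies to Tlr1, with SDs of 0.67 and 1.49 in this pair against 0.10 in neurons and 0.27 in astrocytes. Ly96, the Toll-like receptor 4 co-receptor, was higher in microglia by 2.04 log2 units. The shared calls of Cd14, Tlr1 and Tnf were each lost without at least 1 single array (for Cd14, astrocyte array 1 or 4 or oligodendrocyte array 3 or 4, for Tlr1, astrocyte array 1 or 2 or microglia array 4, and for Tnf, microglia array 4).

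Other phagocyte groups were called in part, where 2.77% of all genes were called. Of 13 measured lysosomal genes 4 were called, all 4 of them higher in microglia, among them the protease Ctss. Ctss lay between 10.27 and 11.99 in oligodendrocyte cultures, between 12.74 and 13.07 in microglia and between 5.32 and 5.58 in neurons, while astrocyte arrays 2 and 3 read 8.19 and 8.21 against 5.80 and 5.69 on the others. Without oligodendrocyte array 1 the within-pair calls of Ctss and of the protease Ctsz were lost, which left Lgmn and Gpnmb, and that of Ctsz was also lost without microglia array 4. Chemokines and their receptors gave 3 of 15, namely the chemokines Ccl3 and Ccl4 and the complement receptor C5ar1, which is also counted on the complement list. The chemokine receptors Ccr1, Ccr2, Cx3cr1 and Cxcr4 were not called. MHC class II genes gave 2 of 8 and purinergic receptors 2 of 11. The call of RT1-DMa, 1 of the 2 MHC class II genes, was lost without oligodendrocyte array 3 or 4. P2ry12, the ADP receptor of resting microglia, read 5.63, 6.49, 6.03 and 6.52 in oligodendrocyte cultures and 9.06, 9.95, 10.24 and 10.06 in microglia, and 1 of its 2 probe sets met the rule. Its difference within the pair was -3.66 ± 0.23 (SE, n = 4 per culture, limma adjusted p = 8.94e-08). Among lipid efflux genes, Abcg1 alone of 12 was called, a call that was lost without oligodendrocyte array 2. None of 14 interferon-stimulated genes was called, although the mean of the second pair exceeded that of the first in all 14. The list averaged 4.84 in neurons, 6.85 in astrocytes, 8.12 in oligodendrocyte cultures and 6.68 in microglia, so astrocytes did not lie below microglia. Microglia array 4 averaged 8.43, against 5.65, 6.75 and 5.88 on microglia arrays 1 to 3. None of 14 cell division genes and none of 8 ribosomal protein genes was called in either direction. In these lists too the mean of the second pair was the higher in all 14 and all 8, with neurons lowest. Cell division genes averaged 4.51 in neurons, 7.60 in astrocytes, 7.72 in oligodendrocyte cultures and 7.89 in microglia.

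Myelin and precursor genes made up a smaller share of the same set. Of 13 measured oligodendrocyte markers 7 were called shared with microglia cultures, and 6 of these were higher in oligodendrocyte cultures. Sox10, the transcription factor that drives the oligodendrocyte lineage, read 10.45, 10.89, 10.65 and 10.95 in oligodendrocyte cultures and 9.58, 9.09, 7.61 and 7.96 in microglia. Neuron arrays lay between 4.74 and 5.14 and astrocyte arrays between 5.08 and 5.64, so every microglia array stood above them. Oligodendrocyte cultures exceeded microglia by 2.18 ± 0.33 (SE, n = 4 per culture, limma adjusted p = 0.000167). Ugt8, which makes the myelin lipid galactosylceramide, lay at 10.74, 10.19, 9.43 and 10.79 in oligodendrocyte cultures and at 7.74, 7.87, 5.35 and 7.32 in microglia, a difference of 3.22 ± 0.54 (SE, n = 4 per culture, limma adjusted p = 0.00043), and 1 of its 2 probe sets met the rule. Mbp, myelin basic protein, reached 12.35 to 14.13 and 10.97 to 12.57 in the pair, and its difference of 1.56 did not pass (limma adjusted p = 0.199). Astrocyte array 1 read 11.19 for Mbp, within the microglia range. Of 9 measured precursor genes 5 were called, all 5 higher in oligodendrocyte cultures, with Sox10 counted in both lists. Within-pair calls of Bcas1, Mag and Olig1 were lost when single arrays were left out, microglia array 3 in each case and for Mag and Olig1 others too. Vcan, a matrix proteoglycan of precursors, was called on 1 of its 5 probe sets and not without microglia array 2.

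Within the whole set of 394 genes, 167 were higher in microglia, 38 were higher in oligodendrocyte cultures and 189 met neither condition. Without microglia array 4, 150 genes were higher in microglia. For 83 of the 189 the 95% interval of the difference lay within 1 log2 unit of 0. The median difference, oligodendrocyte minus microglia, was -0.80 and the range ran from -4.61 (Cfd) to 3.58 (Pilra, an inhibitory receptor of myeloid cells). Pilra read 10.18, 10.22, 10.79 and 8.64 in oligodendrocyte cultures, and 5.86, 5.08, 5.33 and 9.24 in microglia, where array 4 stood apart. The next widest leads in oligodendrocyte cultures were those of Zfp488, a transcriptional regulator of oligodendrocytes (3.35), Ugt8 (3.22), Slco4a1, an organic anion transporter (3.11), and then Enpp2, the lysophospholipase autotaxin. After Cfd, microglia led most in Tbc1d4, a Rab GTPase-activating protein (-4.09), Trem2 (-3.86), P2ry12 (-3.66) and Fcna, a ficolin (-3.66). Shared calls of Enpp2 (neuron array 3 or 4, microglia array 1 or 2), Tbc1d4 (neuron array 2, oligodendrocyte array 3) and Fcna (astrocyte array 1) were lost without the single arrays named. The closest pair of means was that of Ccl3, a chemokine, at 0.00 with a 95% interval of -0.94 to 0.95. Adgre1 itself gave 0.04, with an interval of -0.56 to 0.64. Cbfb, a partner of the Runx factors, had the tightest interval of the 8 genes with the closest means, -0.29 to 0.24 around -0.02. Heatr1, a ribosome biogenesis factor, was also among these 8, and its shared call was lost without microglia array 2 or 4.

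**Figure D3:**
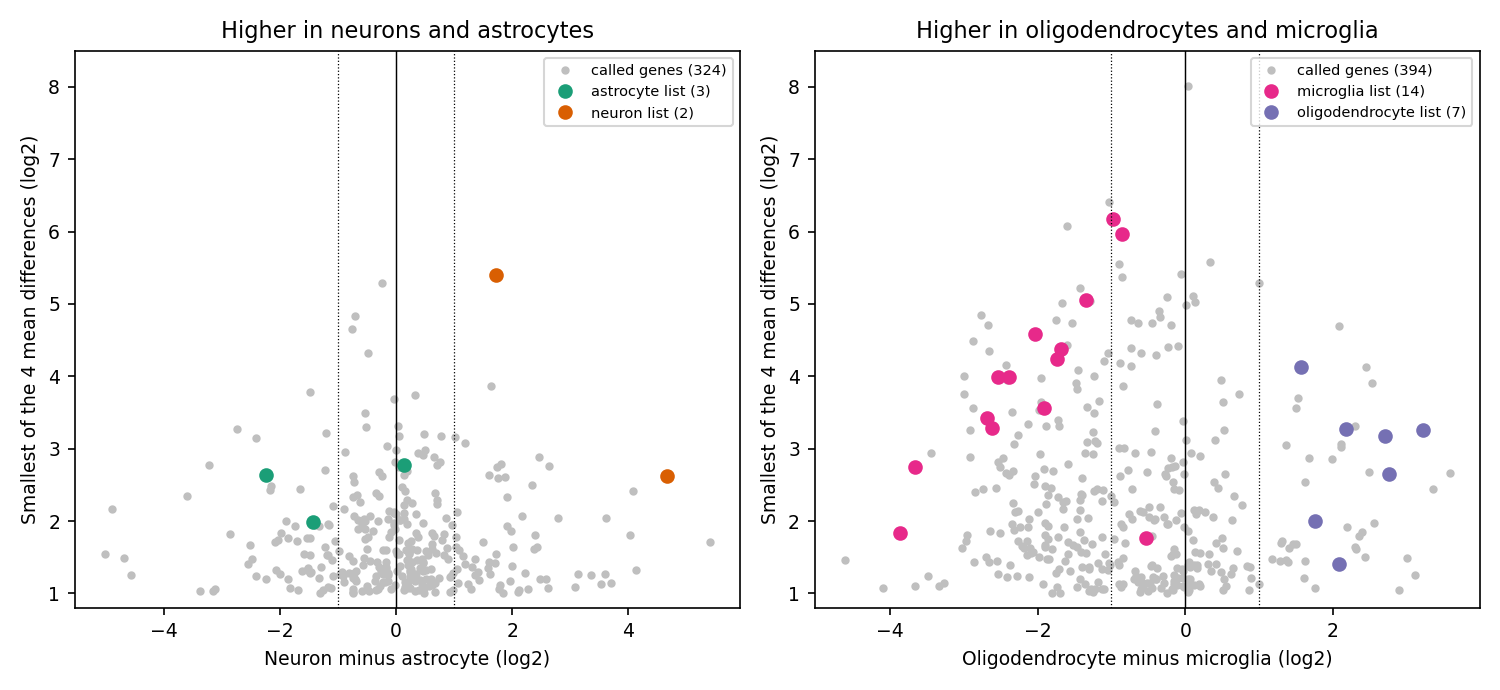
Difference within each pair (log2, x axis) against the smallest difference between the pairs (log2, y axis) for every called gene (grey points), with 1 panel per side, called marker list members in colour and dotted lines at 1 log2 unit either way. Neuron minus astrocyte differences run from -5.02 (Aldh1a1) to 5.40 (Bhlhe22) around a median of 0.10, and oligodendrocyte minus microglia differences from -4.61 to 3.58 around a median of -0.80.

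The set was next read against promoter sequence. Of the 394 genes, 316 had a promoter in the RefSeq table for the GRCr8 build, from 250 bases before to 50 bases after the start, and both strands were searched for short words. Shares are given for 10 words, and 2 longer forms of the X-box that were also searched are not reported here. The word GAGGAAGT, a form bound by the myeloid ETS factor PU.1, was found in 25 of the 316 (7.91%), in 1 of 253 promoters of genes shared by neurons and astrocytes (0.395%) and in 670 of all 27457 promoters (2.44%). Among genes measured on the array it was found in 292 of 11733 (2.49%). It was found in 14 of 139 genes higher in microglia (10.1%), in 11 of 145 that met neither condition (7.59%) and in 0 of 32 higher in oligodendrocyte cultures. Those 32 promoters are too few to tell 0 from the 2.49% among genes on the array. The shorter word GGAAGT, which GAGGAAGT contains, was found in 22.8% of all promoters, 26.1% of those of genes on the array, 35.8% of this set and 14.6% of the other set. For the other words the shares follow in the order all promoters, genes on the array, this set and the other set. TTCCTC, which overlaps GAGGAAGT on the opposite strand, was found in 27.5%, 26.8%, 41.1% and 25.7%, and the AP-1 word TGACTCA in 4.53%, 3.80%, 6.33% and 3.95%. The general ETS word CCGGAAGT, which also holds GGAAGT, was found in 4.01%, 6.84%, 1.27% and 3.56%. The SOX word AACAATGG was found in 1.06%, 0.605%, 0.633% and 0.395%, and the SOX word ACAAAG in 18.3%, 14.1%, 16.5% and 16.2%. The TEAD word GGAATG was found in 13.9%, 11.7%, 9.81% and 15.8%, and the E-box CACGTG in 6.65%, 8.92%, 5.70% and 7.12%. These shares are descriptions, base composition was not matched, and a match is not a measured binding site. The stretch from 80 bases before to 5 after the start is printed below, 5′ to 3′ on the gene's strand with the word in capitals (ACTTCCTC where it lies on the opposite strand), for 5 genes of the set in which the word lies close to the start.
Slamf9 (chr13:87474247-87474331, plus strand): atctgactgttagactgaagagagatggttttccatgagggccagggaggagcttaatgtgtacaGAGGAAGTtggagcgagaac
Fcgr3a (chr13:85782556-85782640, plus strand): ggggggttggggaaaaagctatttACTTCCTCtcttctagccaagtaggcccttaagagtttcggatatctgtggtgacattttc
Cd53 (chr2:197087892-197087976, minus strand): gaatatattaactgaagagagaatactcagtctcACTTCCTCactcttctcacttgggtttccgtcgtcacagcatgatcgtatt
Ctss (chr2:185775316-185775400, plus strand): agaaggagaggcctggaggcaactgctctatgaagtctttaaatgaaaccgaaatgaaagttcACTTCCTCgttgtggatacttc
Vav1 (chr9:2248875-2248959, plus strand): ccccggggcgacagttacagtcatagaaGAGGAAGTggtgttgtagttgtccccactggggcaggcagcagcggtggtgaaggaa

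The first base of the word lies 15 bases before the start of Slamf9 and 17 bases before that of Ctss. In Cd53, Vav1 and Fcgr3a it lies 46, 52 and 56 bases before. Slamf9, a receptor of the SLAM family, read 10.34, 10.79, 8.94 and 9.42 in oligodendrocyte cultures and 8.90, 9.84, 10.04 and 11.67 in microglia, and 4.44 to 4.95 on the neuron and astrocyte arrays. Cd53, a leukocyte tetraspanin, lay at 8.56 to 10.07 in oligodendrocyte cultures and at 11.66, 12.22, 12.18 and 12.11 in microglia, where it was higher by 2.66 log2 units (limma adjusted p = 0.00117).

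On the other side, the gene with the widest gap was Stmn2, a microtubule-destabilising protein of growing neurites. Stmn2 read 13.37, 13.33, 13.03 and 13.01 on neuron arrays 1 to 4 and 11.78, 12.25, 12.20 and 9.64 on astrocyte arrays 1 to 4. Oligodendrocyte arrays read 7.34, 5.53, 6.49 and 4.88, and microglia arrays 5.25, 4.48, 5.24 and 4.45. The smallest gap of 5.41 (42.4-fold) left every array of the first pair above every array of the second. Neurons exceeded astrocytes by 1.72 ± 0.55 (SE, n = 4 per culture, limma adjusted p = 0.0174). Baalc, a membrane-associated protein of neural and blood progenitors, read 9.33, 9.53, 8.80 and 8.87 in neurons and 10.23, 10.48 and 10.40 on astrocyte arrays 1 to 3, above every neuron array, but 6.41 on astrocyte array 4, below every neuron array. All oligodendrocyte and microglia arrays were between 3.50 and 4.28, a gap of at least 39.1-fold. Calb1, the calcium buffer calbindin, likewise had astrocyte arrays 1 to 3 (11.79, 11.04 and 10.89) above the neuron arrays (9.28 to 9.49) and array 4 (6.83) below them. Cd24, a surface glycoprotein of immature neurons and glia, and Fhod3, a formin, had gaps of 4.84 and 4.32. Without astrocyte array 4, neuron minus astrocyte differences were -1.23 for Baalc, -1.87 for Calb1 and -1.06 for Cd24, and each then passed the rule for a pair, which none of the 3 passed with it.

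The remaining widest gaps belonged to genes of varied function. Kitlg, the ligand of the Kit receptor, read 8.76, 8.95, 9.48 and 9.52 in neurons and 9.52, 9.88, 9.92 and 9.54 in astrocytes, and 4.34 to 7.10 across oligodendrocyte and microglia arrays. Penk, the enkephalin precursor, read 9.67, 8.89, 9.94 and 10.05 in neurons and 9.26, 9.70 and 9.49 on astrocyte arrays 1 to 3, with array 4 a little higher, so that the pair differed by 0.02 on average. Its oligodendrocyte arrays (5.53 to 7.05) averaged 0.96 above its microglia arrays (4.69 to 5.63), less than the minimum of 1 (limma adjusted p = 0.0347). C8h11orf87, an open reading frame without a settled function, was higher in neurons (1.63 ± 0.19, SE, limma adjusted p = 2.6e-06). Pcp4l1, a relative of a calmodulin-binding neuronal peptide, was lower in neurons than in astrocytes by 2.73, and Crip2, a LIM-domain protein, by 1.48. Lmo7, a LIM and PDZ domain protein, read 10.16 on astrocyte array 4 against 6.97 to 7.18 on the other 3, and 2 of its 4 probe sets met the rule.

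Lmo4, a LIM-only transcriptional adaptor of the developing cortex, was level within both pairs. It read 12.27, 12.25, 12.10 and 12.19 in neurons, 12.28, 12.13, 12.04 and 12.33 in astrocytes, 10.25, 10.18, 10.09 and 9.87 in oligodendrocyte cultures and 10.16, 10.10, 9.96 and 9.78 in microglia. The gap was 4.28-fold. The difference was 0.01 within the first pair (95% interval -0.22 to 0.24) and 0.10 within the second (-0.14 to 0.33), and 3 of its 5 probe sets met the rule. Inhba, the activin subunit, also had nearly equal means in neurons and astrocytes (-0.01), but its astrocyte arrays read 4.78, 6.18, 5.99 and 11.04. Its neuron arrays read 8.09, 7.61, 6.09 and 6.18, so the equal means hide a wide spread among astrocyte arrays, of which array 4 was the highest. Without that array Inhba was higher in neurons by 1.34 and passed the rule for a pair.

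Within the whole set of 324 genes, 66 were higher in neurons, 61 were higher in astrocytes and 197 met neither condition. Without neuron arrays 3 and 4, an alternative chosen after seeing the data, 34 genes were higher in astrocytes. For 94 of the 197 the 95% interval lay within 1 log2 unit of 0. Over all genes, 12.8% were higher in neurons and 17.0% in astrocytes. Bhlhe22, a transcription factor of cortical projection neurons, had the widest neuronal lead, with 11.82, 11.59, 10.66 and 10.69 against 5.60, 5.86, 6.23 and 5.45 in astrocytes (5.40 ± 0.28, SE, n = 4 per culture, limma adjusted p = 3.52e-10). Its oligodendrocyte and microglia arrays lay between 3.39 and 4.46, so the astrocyte level was low but above them. Gad1, which makes GABA, Thy1, a surface protein of axons, Scg5, a secretory granule chaperone, and Robo2, a Slit receptor, followed at 4.66, 4.13, 4.08 and 4.04. Aldh1a1, a retinaldehyde dehydrogenase, had the widest astrocyte lead, with 9.87, 10.65, 10.43 and 10.50 in astrocytes and 4.36, 4.26, 6.26 and 6.49 in neurons. Oligodendrocyte and microglia arrays read 3.45 to 4.11 for this gene, close to neuron arrays 1 and 2 and well below neuron arrays 3 and 4, and neuron arrays 3 and 4 also had the higher astrocyte marker averages of 9.11 and 8.86. The part of those markers in the result was not tested. Rnase4, a secreted ribonuclease, Gpc4, a glypican, Prss23, a serine protease, and Mlc1, a membrane protein of astrocyte endfeet, followed at -4.89, -4.69, -4.57 and -3.60 (neuron minus astrocyte). Of these, Mlc1 was no longer called shared without neuron array 3 or 4 or without oligodendrocyte array 2, 3 or 4, Prss23 depended on 4 single arrays, and Thy1 was not called without astrocyte array 3 or 4 or oligodendrocyte array 1, 2 or 3.

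Of 16 neuron markers, Stmn2 and Gad1 were called shared by neurons and astrocytes, where 2.28% of all genes were. Of 14 measured astrocyte markers, Slc4a4, Gja1 and S100b were called. Gja1, the gap junction protein connexin 43, read 7.98, 9.38, 11.14 and 10.47 in neurons, 12.69, 11.87, 11.78 and 11.63 in astrocytes, 9.73, 6.83, 5.56 and 6.30 in oligodendrocyte cultures and 5.14, 4.70, 6.53 and 4.70 in microglia. Neuron array 1 lay below oligodendrocyte array 1, so the sides overlapped, and the call was lost without oligodendrocyte array 3. One of its 3 probe sets met the rule. Gfap, Aqp4 and Ntsr2 met the rule on means, but the largest of their 4 limma adjusted p-values were 0.0733, 0.106 and 0.0505.

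Genes of the primary cilium recurred among those shared by neurons and astrocytes. The cilium is an antenna-like projection that intraflagellar transport builds and through which the BBSome moves membrane receptors. Both lists were drawn up after the values had been seen and are given as a description. Of 11 measured genes of the BBSome and its Arl GTPases 7 were called, where 2.28% of all genes were. The mean of neurons and astrocytes exceeded that of oligodendrocytes and microglia in all 11, by a median of 1.79. Of 25 measured intraflagellar transport genes 6 were called and 24 were higher, by a median of 1.27, while the median over all 14217 genes was -0.03. Bbs5, a BBSome subunit, read 7.37, 7.29, 7.12 and 6.99 in neurons and 7.77, 7.14, 7.19 and 6.11 in astrocytes. Oligodendrocyte arrays read 4.07, 4.36, 3.52 and 3.80 and microglia arrays 4.17, 4.58, 4.52 and 4.40, a gap of at least 6.22-fold with no overlap. Arl6, the GTPase that recruits the BBSome to membranes, read 8.62, 8.80, 8.33 and 8.26 in neurons and 9.13, 8.62, 8.70 and 8.04 in astrocytes, against 5.74 to 7.07 in oligodendrocyte cultures and 5.38 to 5.70 in microglia. Neither gene differed by the rule between neurons and astrocytes (0.14 for Bbs5, limma adjusted p = 0.732, and -0.12 for Arl6, 0.759). Dync2li1, a light chain of the retrograde cilium motor, was higher in astrocytes by 1.82. Cfap69 and Dnal1, proteins of motile cilia, were also among the 8 genes with the closest neuron and astrocyte means. The 4 measured ependymal markers, genes of multiciliated cells, averaged 8.10, 7.18, 7.20 and 5.02 on astrocyte arrays 1 to 4 and 4.40 to 4.78 on neuron arrays. Their part in the astrocyte levels was not tested.

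The X-box, the site of the RFX factors that control cilium genes, is given here by 1 arm of it, GTTGCCNNG. The 2 longer forms that were also searched and seen are not reported here. The arm was found in 21 of 253 promoters of genes shared by neurons and astrocytes (8.3%), in 5 of 316 of the other set (1.58%) and in 1395 of all 27457 (5.08%), with 596 of 11733 (5.08%) among genes on the array. It was found in 11 of the 30 promoters of measured genes on the 2 cilium lists (36.7%), whether called or not. Of the 21, 5 belong to called genes of these lists, 11 of which had a promoter. The lists were drawn up after the values were seen, so the 21 are not separate from them. As for the words above, these shares are descriptions, base composition was not matched, and a match is not a measured binding site. The arm is in capitals in the same stretch around the start of 3 cilium genes called shared (in Dync2li1 it lies on the opposite strand and reads CATGGCAAC).
Bbs5 (chr3:74818560-74818644, plus strand): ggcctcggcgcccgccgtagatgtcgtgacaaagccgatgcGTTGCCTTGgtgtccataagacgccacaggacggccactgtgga
Arl6 (chr11:54181278-54181362, plus strand): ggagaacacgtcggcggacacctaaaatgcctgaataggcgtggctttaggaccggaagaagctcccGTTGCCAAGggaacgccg
Dync2li1 (chr6:15778162-15778246, minus strand): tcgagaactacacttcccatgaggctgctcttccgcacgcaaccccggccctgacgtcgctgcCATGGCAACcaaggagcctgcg

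Of 15 measured glycolysis genes, 3 were called shared by neurons and astrocytes, where 2.28% of all genes were. They were Hk1, the hexokinase of brain, Pfkm, a phosphofructokinase, and Ldhb, the lactate dehydrogenase subunit of oxidative tissues. Ldhb read 11.34, 11.13, 12.13 and 12.12 in neurons, 11.70, 11.58, 11.62 and 10.34 in astrocytes, 9.59, 9.20, 10.09 and 9.26 in oligodendrocyte cultures and 9.03, 8.62, 8.30 and 7.54 in microglia. None of the 3 met the rule within the pair, although the neuron mean was the higher in each. The differences were 0.24 for Hk1 and 0.79 for Pfkm, and Ldhb differed by 0.37 ± 0.36 (SE, n = 4 per culture, limma adjusted p = 0.46).

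Ligands, receptors and matrix genes of neural development were mostly shared unevenly. Of 23 measured axon guidance genes 4 were called shared by neurons and astrocytes, as were 2.28% of all genes. On this side the same share applies to the lists that follow. The receptors Epha4, Robo2 and Epha5 were higher in neurons, by 1.88, 4.04 and 3.36, and the ligand Sema3c was higher in astrocytes, by 3.38. Sema3c read 8.14, 7.76, 8.72 and 8.60 in neurons and 11.52 to 11.77 in astrocytes, against 6.62 to 7.76 in oligodendrocyte cultures and 6.21 to 8.66 in microglia, and its shared call was lost without any one of 12 arrays. Among 18 measured matrix genes, Gpc4, Sdc2 and Agrn were called with neurons and astrocytes. The heparan sulfate proteoglycan Sdc2 was higher in astrocytes by 3.16, while Agrn did not pass within the pair (0.48, limma adjusted p = 0.238). Of the signalling lists, Wnt gave 2 of 14, Dkk3 and Wnt7a, and Hedgehog 1 of 8 (Boc, a co-receptor). Neither Wnt gene met the rule within the pair (neuron minus astrocyte -0.48 for Dkk3 and 0.26 for Wnt7a). The BMP and TGF-beta list of 17 gave Nog, an antagonist of BMPs, with neurons and astrocytes, and Tgfb1, a cytokine, with oligodendrocytes and microglia. The list of 17 FGF and EGF genes gave Fgf13, an intracellular sodium channel partner that was higher in neurons by 3.62, and Egfr, which was higher in astrocytes by 1.22. Of 20 measured neural transcription factors, Lhx2 and Meis2 were called, the first of them higher in astrocytes by 1.33. Meis2 did not meet the rule within the pair (neuron minus astrocyte 0.34). None of 14 Notch genes, 10 genes of glutamate uptake or 13 glutamate receptor genes was called. The shared calls of Wnt7a, Nog, Sdc2, Agrn and Mt3, a brain metallothionein, were each lost without at least 4 different single arrays, and the within-pair calls of Egfr and Lhx2 also depended on single arrays (for Lhx2, neuron arrays 3 and 4).

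**Figure D4:**
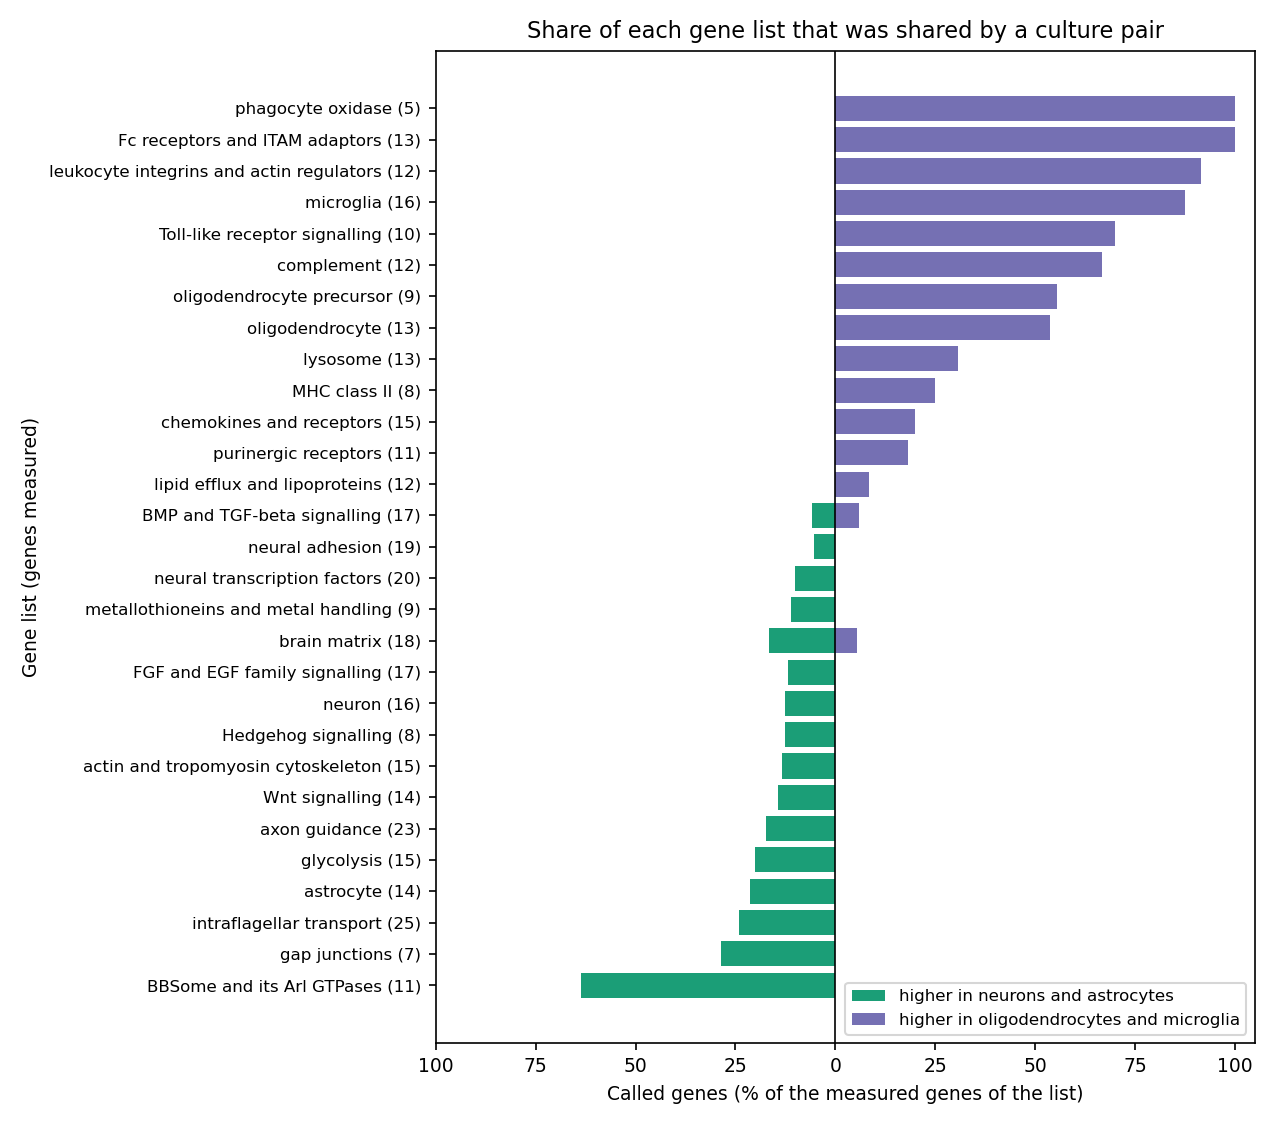
Share of the measured genes of each list (y axis, number measured in brackets) that were called shared by neurons and astrocytes (bars to the left) or by oligodendrocytes and microglia (bars to the right), in percent (x axis), for lists with at least 1 call. Fc receptors with ITAM adaptors (13 of 13) and the phagocyte oxidase (5 of 5) are wholly on the second side. The largest share on the first side is that of the BBSome list (7 of 11). The BBSome and intraflagellar transport lists were drawn up after the values were seen, and the others with earlier results of these data known. Some genes are on more than 1 list. Over all genes, 2.28% were called on the first side and 2.77% on the second.

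Of the 363 genes that met the rule on means for neurons and astrocytes, those just inside it were Agrn, Fhl1, a LIM protein of muscle and glia, and Lrig1, a receptor inhibitor, each with a smallest difference of 1.01. Lrig1 was not called, since the largest of its 4 limma adjusted p-values was 0.0566. Rprm, Nfix and Anks3 lay just outside, each at 0.997. On the other side Dennd1c (1.00), Cst7 (1.01) and Neu1 (1.01) lay just inside, Cst7 without being called, and Oasl, Plekhm3 and Sipa1 just outside at 0.999, 0.996 and 0.995. The shared calls of Fhl1, Dennd1c and Neu1 each ended without any one of 6, 5 and 4 arrays.

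The mixtures gave a second measurement of 8 of the 16 culture RNAs. One mixture held 50% neuron, 20% astrocyte, 20% oligodendrocyte and 10% microglia RNA, and another 50% neuron and 50% astrocyte RNA, each on 2 arrays, with the RNAs of neuron arrays 1 and 2, astrocyte arrays 1 and 4, oligodendrocyte arrays 2 and 4 and microglia arrays 2 and 3 as parents. Astrocyte array 4, which stood apart in its fibroblast and meninges markers, is thus 1 of the 2 astrocyte parents. They are not new cultures, so they measure how the arrays read added RNA rather than how cultures vary. Of the 394 genes shared by oligodendrocytes and microglia, 231 were higher in the 4-culture mixture (limma adjusted p below 0.05), against 2.22% of all genes. The difference was above 0 for 393 and the mixture was higher in both replicates for 384, and its median was 1.47 log2 units where the parent arrays and proportions give 1.80. Adgre1 read 3.34 and 3.27 in the mixtures of neuron and astrocyte RNA and 9.90 and 10.35 in the 4-culture mixtures (6.81 ± 0.21, SE, n = 2 per mixture, limma adjusted p = 2.33e-05). Ugt8 read 4.15 and 3.57 against 8.43 and 8.44 (4.57 ± 0.44, SE, n = 2 per mixture, limma adjusted p = 0.0024). With the replicate number as a block, which pairs mixtures of the same parents, 315 of the 394 were higher. Leaving out 1 of the 4 arrays of these 2 mixtures gave 143 to 160, the lowest without replicate 1 of the 4-culture mixture.

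Of the 324 genes shared by neurons and astrocytes, 7 were lower in the 4-culture mixture, against 0.521% of all genes. With the replicate block 54 were lower, and in a limma fit of the 2 compared mixtures alone 0 passed. The difference was below 0 for 307 and the 4-culture mixture was lower in both replicates for 272, with a median of -0.35 where -0.33 was expected from the parents. The median over all genes was -0.01. The 7 genes were Fads3, Slc27a3, P4ha3, Bace2, Sdc2, Sema3c and Fhl1, and all of them were among the 61 genes higher in astrocytes than in neurons. Sdc2 read 10.24 and 10.10 in the mixtures of neuron and astrocyte RNA and 9.18 and 8.98 in the 4-culture mixtures (-1.09 ± 0.12, SE, n = 2 per mixture, limma adjusted p = 0.00366). The medians were -0.85 for the 61 genes higher in astrocytes, -0.35 for the 197 that met neither condition and -0.07 for the 66 higher in neurons. Neuron RNA made up the same 50% of both mixtures, and astrocyte RNA 50% of one and 20% of the other. Leaving out single arrays changed the count of 7 to between 1 and 4, the fewest without replicate 2 of the 4-culture mixture.

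**Figure D5:**
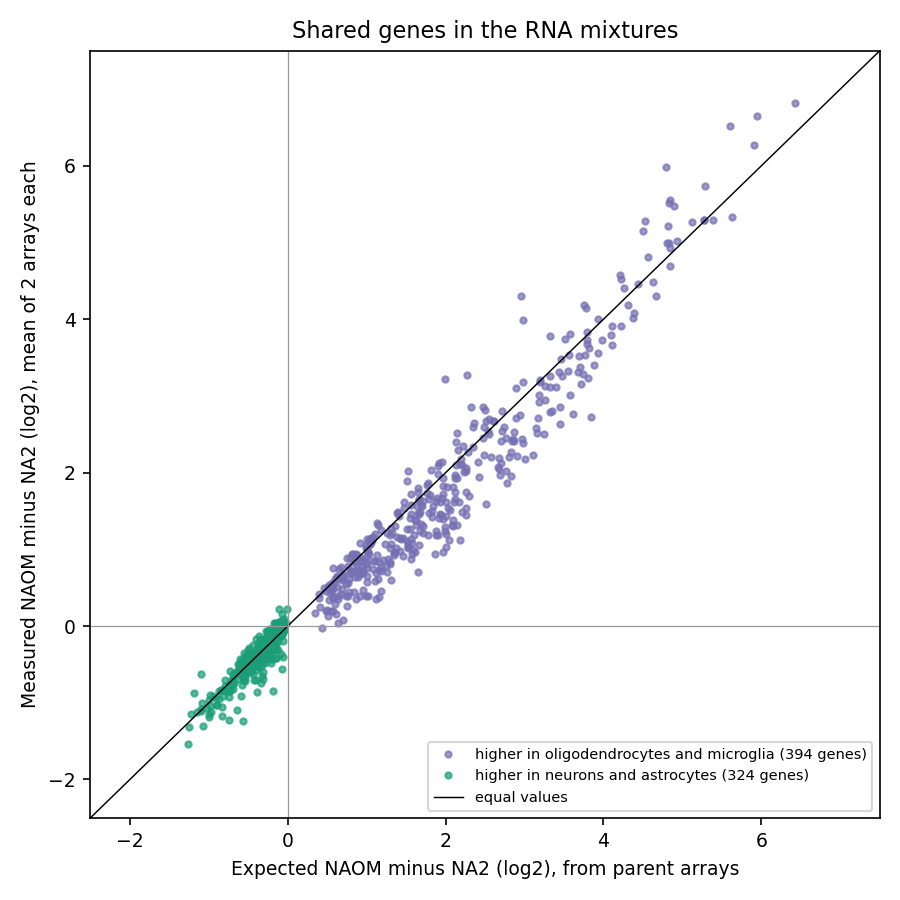
Measured difference between the 4-culture mixture (NAOM) and the mixture of neuron and astrocyte RNA (NA2) (log2, y axis) against the difference expected from the parent arrays and the mixing proportions (log2, x axis) for every shared gene, means of 2 arrays per mixture, with a line at equal values. The genes of oligodendrocytes and microglia lie above 0 for 393 of 394, with a median of 1.47, and those of neurons and astrocytes lie below 0 for 307 of 324, with a median of -0.35.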

How the data were processed

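Affymetrix arrays measured biotin-labelled total RNA of the 4 primary cultures and of their mixtures, per the labels' protocols. The deposited table holds log2 expression values per probe set, made with RMA in the affy package, per the submitters' processing notes, whose version is not given in the sources used here. RMA corrects background, quantile-normalizes and summarises probes, so a difference in total RNA per cell is not kept, and the number of arrays limits the precision.

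Tests covered 31042 probe sets, without 57 controls. Probe sets were named from the platform annotation: 20826 had 1 symbol, 436 several and 9780 none, and 20758 of the first matched a gene of the GRCr8 annotation. A gene was represented by its probe set with the highest mean over all 26 arrays, which gave 14217 genes. Many called genes had probe sets that did not meet the rule on means. Of those with over 1 probe set, every probe set met it for 36 of 139 genes shared by neurons and astrocytes. The same held for 32 of 106 shared by oligodendrocytes and microglia. In neither set did a probe set meet the opposite rule. The 16 culture arrays were fitted together with 1 mean per culture (lmFit and eBayes, limma 3.58.1, R 4.3.3), and the 10 mixture arrays in a fit of their own. Each fit has 1 spread per probe set, shared by its cultures or mixtures. For a gene that varies little in the dim pair, the within-pair SE of the other pair is thus made smaller. A difference within a pair was called at 1 log2 unit or more and an adjusted p below 0.05, and a mixture difference at an adjusted p below 0.05 with no minimum. Same-numbered cultures did not deviate together (correlations of -0.107 to 0.178, 5 of 24 above 0.1), whereas same-numbered mixtures, which share parents in the labels, did (0.381 to 0.873, 20 of 20). With 2 arrays per mixture, replicates 1 and 2 of any 2 mixtures give the same correlation, so the 20 values are not all distinct. Tested on simulated data for genes shared by neurons and astrocytes, over 31042 probe sets, the procedure recovered 82% of changes of 1.5 log2 units and 99% of changes of 3. The simulated cultures had equal means and normal noise, and the change was the same in neurons and astrocytes. The rates therefore do not cover genes shared unevenly within the pair.

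Genes were named by a rule: per side the 15 widest smallest differences, the 8 closest and the 5 most uneven each way within the pair, the 3 just inside and outside the threshold, and the called members of 40 gene lists. The members and lists were chosen with earlier results of these data known. Array weights, other minimum differences, replicate blocks, other gene summaries and left-out arrays were tried as alternatives, with effects in the closing section. Promoters came from RefSeq (GRCr8). Tables were handled in Python 3.11.15 with NumPy 2.4.6 and pandas 2.3.3.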

Additional observations from a re-analysis of the deposited data

Results flagged for a closer look

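In 8 of 156 groups of 4 arrays, 1 array lay far from the other 3 by Dixon's test, which chance alone does in about 1 of 20 groups. Astrocyte array 4 read 6.41 for Baalc, against 10.23 to 10.48 on the others, and 10.16 for Lmo7, against 6.97 to 7.18. On the same array the fibroblast and meninges list averaged 8.79, against 6.28 to 6.49. Oligodendrocyte array 1 was highest for Crip2, a LIM-domain protein, at 8.15 against 6.16 to 6.50, and lowest for the mean of the microglia list, at 8.35 against 9.19 to 9.33. Microglia array 4 read 12.02 for Rac2, against 10.57 to 10.80, and 5.34 for Cpne8, a copine, against 4.62 to 4.69. Microglia array 1 read 4.69 for Penk, against 5.48 to 5.63.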

How the results depend on the processing

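The culture fit was recomputed under 27 alternatives and the mixture fit under 9. A minimum of 0.5 log2 units gave 623 genes shared by neurons and astrocytes and 784 by oligodendrocytes and microglia, and within pairs 197 higher in neurons, 129 in astrocytes, 78 in oligodendrocyte cultures and 290 in microglia. A minimum of 2 gave 92, 196, 8, 8, 12 and 37 in the same order. Leaving out single arrays gave 296 to 376 and 384 to 428 shared genes, and 61 to 71, 49 to 84, 35 to 43 and 150 to 176 within pairs. Between 290 and 315 of the 324 and between 372 and 392 of the 394 genes kept their call. Without microglia array 4, whose description reads as a mixture, 314 and 383 kept it. The count higher in microglia was then 150, the lowest for any single array. Without neuron arrays 3 and 4, an alternative chosen after seeing the data, 34 genes were higher in astrocytes. With array weights, 306 and 377 kept their call, and with a gene as the median of its probe sets 263 and 353. Tpm1, a tropomyosin with 2 of 7 probe sets meeting the rule, was then no longer shared. Its smallest difference was -0.79, so at least 1 of the 4 differences was below 0. With the replicate block, which has no pairing behind it in the cultures, 323 and 392 kept their call. In the mixtures the block moved the 7 lower genes to 54, a fit of only the compared mixtures gave 0, and leaving out single arrays gave 1 to 4 and, for the 231 higher genes, 143 to 160. Of 151 named or listed genes called shared, 126 kept the call without any single array and 25 lost it without at least 1. Low levels limit folds: both lower cultures were below the array medians for 120 of the 324 genes and 204 of the 394.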
